A study of Mus musculus with 24 samples.

Results

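The cytosolic ribosomal proteins were described as 84 of the 24421 genes of the count table: every row whose symbol is Rpl or Rps followed by a number (with an optional letter a, x, y or l and a further digit), with Rplp0, Rplp1, Rplp2 and Rpsa, and without the 7 symbols that carry the pseudogene ending -ps. The choice used symbols alone and no measured value. By symbol alone, 33 of the 84 are named for the small (40S) subunit and 51 for the large (60S) subunit. A total of 81 passed the filter on low counts and were tested, all 33 of the 40S genes and 48 of the 60S genes.

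The medial lobe of the liver was taken from C57BL/6 mice that had received MitoCDNB at 5 mg/kg, or vehicle with 0.1% ethanol, 1 h or 4 h earlier, and its polyA RNA was sequenced. MitoCDNB is a form of the thiol-reactive compound CDNB that is directed to mitochondria. Each treatment and time had 6 mice with 1 library each, which gave 24 libraries in 4 groups, and no further genotype, age or sex is given in the sources used here. The libraries held 25.1 to 37.2 M counts each, 30.3 M on average. All 8 hepatocyte markers were detected in every group. In this bulk tissue, a change in the share of a cell type and a change in RNA per cell cannot be told apart.

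The cytosolic ribosome joins amino acids into protein: the 40S subunit reads the mRNA, and the 60S subunit holds the peptidyl transferase centre and the tunnel through which the new chain leaves. Ribosomal protein mRNAs are abundant in liver and other tissues that make much protein. Many of them begin with a terminal oligopyrimidine (TOP) tract, an unbroken run of C and U after the cap through which their translation follows growth signals to the kinase complex mTORC1. Control of that kind acts on translation, which counts of mRNA do not measure.

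Start-site sequences are shown first because the run of C and T is a feature many of these genes share and the rule did not use. RefSeq promoter windows (build GRCm38.p6, 250 bases before to 50 after the annotated start) were found for 63 of the genes. Where a gene had several starts, the most upstream was used. A run of at least 8 C or T on the sense strand within 50 bases of the start was present in 49 of 63 windows (77.8%), against 34.5% of 17224 promoters. Runs before the start were counted as well as runs after it, so these are not counts of TOP tracts. The examples run from 60 bases before to 30 bases after the start, with the longest C or T run anywhere in that stretch in capitals. They are Rps10, Rpl15 and Rpl38 (long runs at the start), Rps6 (target of the S6 kinases) and Rps27 beside its paralog Rps27l. The others are Rpl5 (called in a comparison below), Rpl22l1 (a paralog of Rpl22) and Rpl7l1 (the gene that varied least with the others).
Rps10 (chr17:27635215-27635304, minus strand): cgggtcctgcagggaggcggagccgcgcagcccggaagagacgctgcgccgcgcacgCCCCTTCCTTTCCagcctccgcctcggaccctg
Rpl15 (chr14:18270957-18271046, minus strand): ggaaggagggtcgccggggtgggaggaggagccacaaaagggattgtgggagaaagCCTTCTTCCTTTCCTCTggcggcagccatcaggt
Rpl38 (chr11:114668520-114668609, plus strand): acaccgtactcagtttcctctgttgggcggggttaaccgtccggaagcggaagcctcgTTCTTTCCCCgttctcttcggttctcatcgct
Rps6 (chr4:86857338-86857427, minus strand): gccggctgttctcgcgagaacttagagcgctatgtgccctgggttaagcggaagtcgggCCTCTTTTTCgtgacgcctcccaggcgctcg
Rps27 (chr3:90213619-90213708, minus strand): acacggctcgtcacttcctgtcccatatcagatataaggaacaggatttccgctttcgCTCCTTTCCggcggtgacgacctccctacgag
Rps27l (chr9:66946026-66946115, plus strand): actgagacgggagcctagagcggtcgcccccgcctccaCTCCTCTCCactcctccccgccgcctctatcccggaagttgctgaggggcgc
Rpl5 (chr5:107900468-107900557, plus strand): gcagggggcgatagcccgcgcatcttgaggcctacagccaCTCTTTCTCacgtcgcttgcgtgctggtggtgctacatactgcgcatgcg
Rpl22l1 (chr3:28805448-28805537, plus strand): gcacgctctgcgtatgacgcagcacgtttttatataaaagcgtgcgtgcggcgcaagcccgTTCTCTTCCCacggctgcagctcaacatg
Rpl7l1 (chr17:46782627-46782716, minus strand): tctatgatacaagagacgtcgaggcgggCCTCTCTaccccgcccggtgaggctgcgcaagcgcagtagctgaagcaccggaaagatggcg

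The run was 17 letters long in Rpl15, 13 in Rps10, 10 in Rpl38, Rps6 and Rpl22l1, and 7 in Rpl7l1. In stretches not printed here it reached 7 letters in Rpl12 and Rplp0 and 5 in Rpl22. The Rpl22 stretch (chr4:152324376-152324465) lies upstream of the GENCODE gene, which begins at 152325742, so it does not show the start of that gene model. The marked run began at position -32 in Rpl7l1, -22 in Rps27l and -20 in Rpl5, and there it ended before the start. An mRNA that begins at the RefSeq start used here does not hold such a run. For Rpl5 the GENCODE gene begins further upstream, at chr5:107900502, and a transcript from there would hold it. Among other motifs counted over the 300 bases of each window on both strands, CCGGAA, the core of ETS family sites, was found in 32 of the 63 windows (50.8%) and in 3264 of the 17224 promoters. AAGATGG, a core of YY1 sites, was found in 15.9% against 6.53%, and GGGCGG, a GC box, in 60.3% against 46.7%. TATAAA was found in 11.1% against 12.8%. These are matches of letters, and no binding was measured.

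Counts of several of these genes cannot be assigned to 1 locus. By GENCODE transcripts, 79 of 80 tested genes with an annotated coding transcript shared at least one stretch of 50 bases with a transcript of another gene, the median share of such stretches was 56.0%, and the median number of pseudogenes sharing them was 8. In the count table, 4 of the 81 genes had another row that matched their counts within 1% in each of the 24 libraries. Rpl26 and Gm15772, a transcribed pseudogene on chromosome 5, held the same count in 24 of 24 libraries (2497 to 3821). Rpl30 and Gm12191, a transcribed pseudogene on chromosome 11, differed by at most 6 counts, and Rps27 and its retrogene copy Rps27rt on chromosome 9 by at most 7. Rpl34 and Rpl34-ps1 on chromosome 6 differed by at most 27 counts, or 0.804%. The next closest pair of rows, between different ribosomal protein genes, differed by up to 7.1%. The values of Rpl26, Rpl30, Rpl34 and Rps27 cannot be told apart from those of these copies.

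Together the 84 genes took 0.963% ± 0.128 (SD, n = 24) of all counts. At 1 h the share was 0.965% ± 0.0552 with vehicle and 0.972% ± 0.174 with MitoCDNB, and at 4 h it was 0.938% ± 0.157 with vehicle and 0.977% ± 0.128 with MitoCDNB (SD, n = 6 each). None of the 84 was among the 50 genes with the highest mean count. Major urinary protein genes alone, secreted products of mouse liver, took 27.9% ± 6.42 (11.1% to 36.4%), and with them left out the ribosomal protein share was 1.33% ± 0.0951. On libraries scaled by edgeR (TMM), the 81 tested genes were summed in CPM (counts scaled to the library size). The sum was 9408 ± 548 with vehicle and 9976 ± 767 with MitoCDNB at 1 h, and 9543 ± 1099 with vehicle and 9408 ± 611 with MitoCDNB at 4 h. The 4 groups overlapped, and the lowest library (7625 CPM) and a library near the top (10901 CPM) were both vehicle at 4 h.

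The balance between the subunits was tighter than the sum. The summed 40S level divided by the summed 60S level was 0.676 ± 0.00645 with vehicle and 0.675 ± 0.00930 with MitoCDNB at 1 h, and 0.677 ± 0.00589 with vehicle and 0.679 ± 0.00306 with MitoCDNB at 4 h. Over the 24 libraries this ratio had a coefficient of variation of 0.931%, against 8.04% for the summed CPM.

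**Figure D1:**
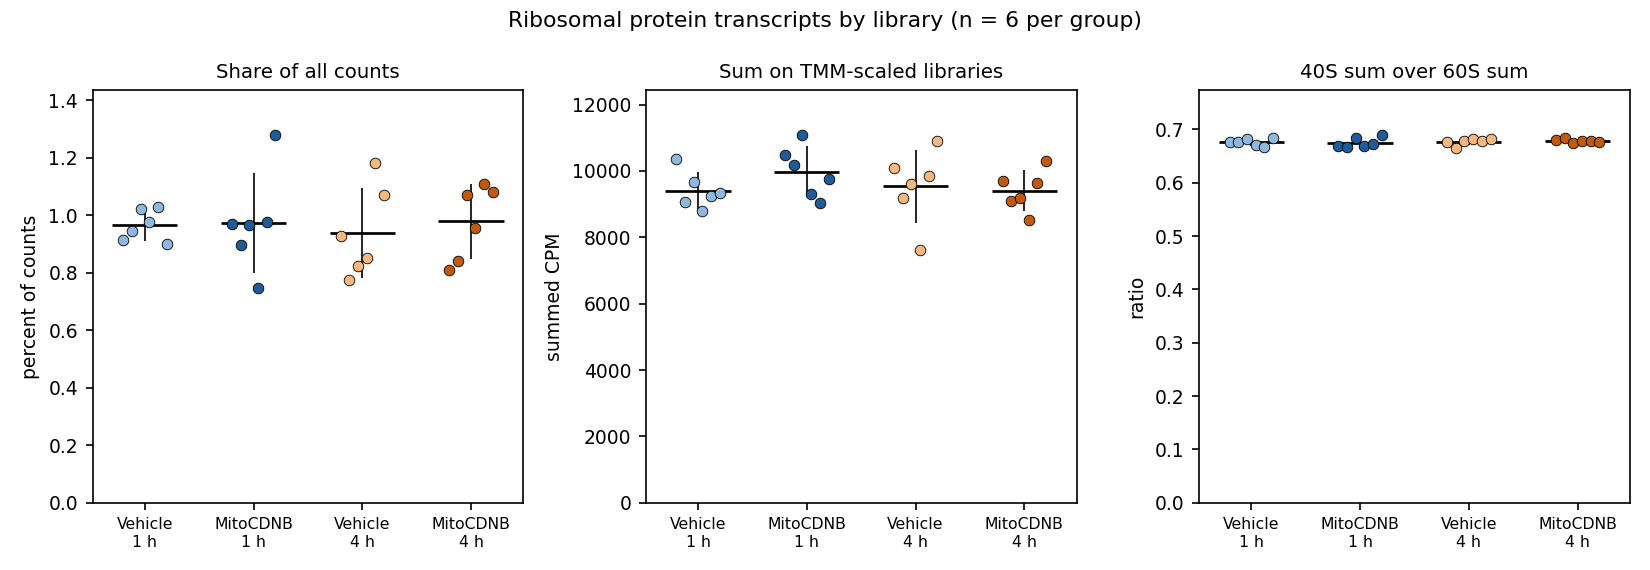
Percent of all counts, summed CPM on scaled libraries and the ratio of 40S to 60S sums, with 1 point per library, lines at the mean and bars of 1 SD (n = 6 per group). The groups overlap in all 3 panels, and the ratio stays between 0.665 and 0.690.

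Levels between genes were compared only per kb of annotated transcript. Over the 80 genes with a length, the median was 143 CPM per kb, for 40S and for 60S genes alike, and the 10th and 90th percentiles were 76.8 and 268. The highest were Rplp1, an acidic protein of the stalk that recruits elongation factors, at 426 ± 49.1 (SD, n = 24), Rps27 at 356 ± 64.2, and Rpl41, the shortest ribosomal protein, at 349 ± 42.1 CPM per kb. The lowest were Rps15a at 11.2 ± 1.37, Rpl7l1 at 18.5 ± 1.41 and Rps20 at 15.6 to 23.5 over the libraries. The model transcripts of Rps15a (5130 nt) and Rps20 (3706 nt) are far above the median of 768 nt, so their rank depends on the model. Per kb of coding sequence, Rps20 reached 197 CPM and Rps15a 147 against a median of 235, while Rpl7l1 (65.2), Rpl22l1 (66.5) and Rpl21 (73.3) were the 3 lowest.

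Some of the paralogs lay far below their parents in level. Rpl10l, a retrogene expressed in testis, had no count in any library, which allows up to 0.122 CPM (3 counts) in the smallest library. Rpl39l, another paralog known from testis, had 10 counts in all, in 5 libraries. Rpl3l, the striated muscle paralog of Rpl3, had 85 counts in 19 libraries, with group totals of 14, 7, 26 and 38 in vehicle 1 h, MitoCDNB 1 h, vehicle 4 h and MitoCDNB 4 h. These 3 genes fell below the filter and were not tested. The 7 muscle markers summed to 0.236 to 0.932 CPM over the 24 libraries, and the 6 testis markers to 8.55 to 14.4 CPM. In each group 3 to 5 of those 6 had a count and 1 had a median above 0.1 CPM, while Tnp1 had no count in any group. Rps27l stood at 158 ± 17.7 CPM per kb, against 356 ± 64.2 for Rps27 and its copy. Rpl22l1 stood at 44.1 ± 7.97 CPM per kb against 138 (105 to 161) for Rpl22, and Rpl7l1 at 18.5 against 120 ± 8.73 for Rpl7.

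At 1 h, MitoCDNB against vehicle, the ribosomal protein genes were close to their vehicle level: 0 of 81 were called at an adjusted p under 0.05 by the quasi-likelihood test of edgeR, where 6.57% of the 13833 genes tested were called. DESeq2 and limma-voom also called 0, and 2 of the 81 had an unadjusted p under 0.05, against 17.7% of all genes. Log2 fold changes ran from -0.12 (Rpl7l1) to 0.19 (Rps27a) with a median of 0.09, and 76 of 81 lay above 0, against a median of 0.003 and 50.7% above 0 over all genes. The median was 0.09 for 40S and 60S genes alike. The 95% interval lay inside a 1.5-fold change in either direction for all 81 genes, with the outermost bounds at -0.36 (Rps4l) and 0.48 (Rpl22l1). The median standard error was 0.0791, against 0.122 over all genes. In no gene did the 6 MitoCDNB and 6 vehicle libraries separate, where 4.74% of all genes separated.

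The small upward offset at 1 h differed between replicate sets. Among replicates 1 to 3 the median log2 fold change was 0.14, and among replicates 4 to 6 it was 0.04. Leaving out 1 library at a time gave medians from 0.06, without MitoCDNB 1 h replicate 3, to 0.12. Summed brain marker levels also differed between these sets (8.45 to 14.2 CPM in replicates 1 to 3 of both 1 h groups, 14.4 to 20.3 in replicates 4 to 6), and their part in the result was not tested.

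Rpl29, a 60S surface protein, had the smallest p at 1 h. Vehicle libraries ran from 64.0 to 70.3 CPM (median 66.1) and MitoCDNB libraries from 67.1 to 81.2 (median 71.6). The groups overlapped, though all 6 MitoCDNB libraries lay above the vehicle mean, and the log2 fold change was 0.12 (SE 0.0583, edgeR adjusted p = 0.261). Rpl12, a protein at the base of the stalk, ran from 90.4 to 105 CPM (median 96.2) in vehicle and from 98.9 to 124 (median 107) in MitoCDNB, with a log2 fold change of 0.15 (SE 0.0708, edgeR adjusted p = 0.263). Neither passed the test.

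At 4 h, MitoCDNB against vehicle, 0 of 81 genes were called by edgeR, where 0.824% of all genes were. DESeq2 and limma-voom called 0 as well, and 0 of 81 had an unadjusted p under 0.05, against 14.3% of all genes. Log2 fold changes ran from -0.16 (Rpl38) to 0.12 (Rpl3), the median was -0.03, and 14 of 81 lay above 0, against 48.9% of all genes. The interval lay inside 1.5-fold for all 81, with the outermost bounds at -0.44 (Rpl38) and 0.34 (Rps4l). No gene had groups that separated, against 0.896% of all genes. Leaving out 1 library at a time moved the median from -0.09, without vehicle 4 h replicate 4, to 0.01, without vehicle 4 h replicate 6.

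The smallest p at 4 h belonged to Rpl7l1, a 60S paralog of Rpl7 known from nucleolar steps of 60S assembly. It ran from 41.7 to 52.2 CPM (median 47.3) in vehicle and from 45.3 to 56.9 (median 51.5) in MitoCDNB, with a log2 fold change of 0.11 (SE 0.0602, edgeR adjusted p = 0.434). Rpl3, which lies near the peptidyl transferase centre, ran from 126 to 168 CPM (median 145) and from 127 to 181 (median 158), with a log2 fold change of 0.12 (SE 0.0791, edgeR adjusted p = 0.530). Both pairs of groups overlapped over most of their range.

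**Figure D2:**
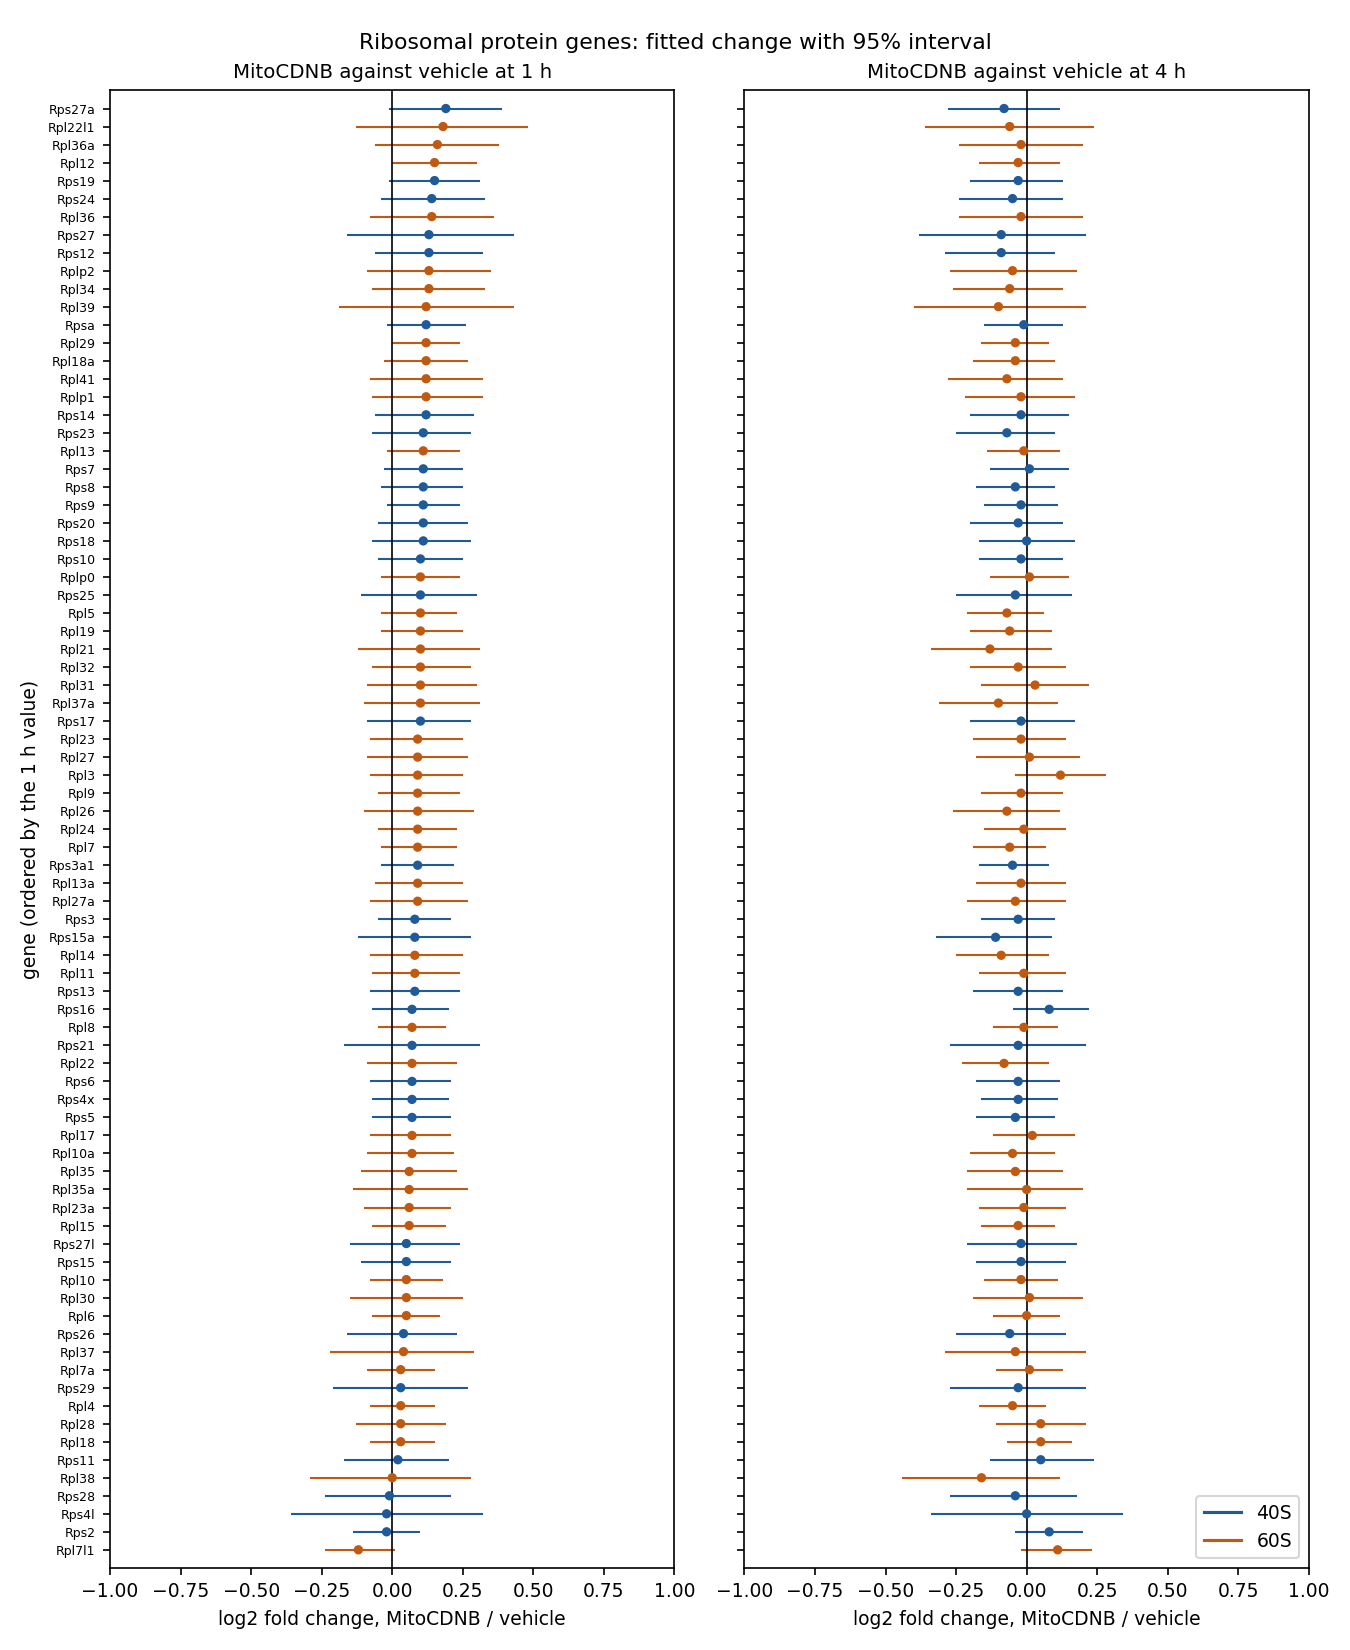
Fitted log2 fold change of MitoCDNB over vehicle with its 95% interval for the 81 tested genes, at 1 h on the left and at 4 h on the right, in the order of the 1 h values, with 40S genes in blue and 60S genes in orange. Points lie between -0.12 and 0.19 at 1 h and between -0.16 and 0.12 at 4 h, and every interval stays inside a 1.5-fold change.

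The test of the difference between the 4 h and 1 h treatment effects (interaction) called 0 of 81 genes with edgeR, DESeq2 and limma-voom, where edgeR called 4.07% of all genes, and 1 of 81 had an unadjusted p under 0.05, against 16.9% of all genes. The median was -0.11, from -0.27 (Rps27a) to 0.22 (Rpl7l1), and 8 of 81 lay above 0, against 48.9% of all genes. The interval lay inside 1.5-fold for 78 genes. Leaving out 1 library at a time moved the median from -0.17, without vehicle 4 h replicate 4, to -0.07, without vehicle 4 h replicate 6. Rpl7l1 was the gene with that p (log2 0.22, SE 0.0852, edgeR adjusted p = 0.157), and Rpl29 had the next smallest (-0.16, SE 0.0824, edgeR adjusted p = 0.315). Without vehicle 4 h replicate 1 and MitoCDNB 4 h replicate 2, which stood apart in earlier results of these data, Rpl7l1 was called (log2 0.29, edgeR adjusted p = 0.0419).

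Between the vehicle groups, 4 h against 1 h, 0 of 81 genes were called by edgeR, DESeq2 and limma-voom, where edgeR called 5.44% of all genes. An unadjusted p under 0.05 was found for 1 of 81, against 19.6% of all genes. The median log2 fold change was 0.02 and 54 of 81 lay above 0, against a median of -0.002 and 49.6% over all genes. In no gene did the groups separate, against 2.50% of all genes. The gene with an unadjusted p under 0.05 was Rps4l, which RefSeq lists as a transcribed pseudogene and which had the lowest CPM of the 81: 6.96 to 9.78 CPM (median 8.01) in vehicle at 1 h and 5.93 to 15.2 (median 10.2) in vehicle at 4 h. Its log2 fold change was 0.36 (SE 0.165, edgeR adjusted p = 0.228), and it was called in 1 of 12 omissions of a library, that of vehicle 4 h replicate 4 (0.48, edgeR adjusted p = 0.0480). Without vehicle 4 h replicate 5 it was 0.22. The next was Rps9, a 40S protein at the mRNA entry site, at 122 to 142 CPM (median 133) and 124 to 163 (median 142), with a log2 fold change of 0.10 (SE 0.0639, edgeR adjusted p = 0.396).

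Between the MitoCDNB groups, 4 h against 1 h, 4 of 81 ribosomal protein genes (4.94%) were called, 1 higher and 3 lower, where 28.5% of all genes were called (15.1% higher and 13.4% lower). The median log2 fold change was -0.10, from -0.30 (Rps27) to 0.37 (Rps4l), and 10 of 81 lay above 0, against a median of -0.010 and 48.5% over all genes. The comparison shares its 1 h and 4 h libraries with the treatment comparisons above, so the offsets are not independent of theirs. With 1 h replicates 1 to 3 alone the median was -0.19, and with replicates 4 to 6 alone it was -0.01.

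Rpl22 (chr4:152325742-152334071), a 60S protein on the outer surface near the exit tunnel, had the smallest p of the 3 that fell. It ran from 62.1 to 76.5 CPM (median 72.9) in MitoCDNB at 1 h and from 53.9 to 64.8 (median 61.4) at 4 h, with vehicle medians of 68.3 and 65.5. The log2 fold change was -0.23 (SE 0.0760, edgeR adjusted p = 0.0266), all 6 later libraries lay below the earlier mean, and the groups still overlapped. Rpl22 kept its call in 7 of 12 omissions of 1 library.

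Rps27a (chr11:29545846-29548109) encodes a 40S protein made as a fusion with ubiquitin. It ran from 69.7 to 99.4 CPM (median 90.8) in MitoCDNB at 1 h and from 58.8 to 81.5 (median 75.7) at 4 h. Vehicle medians at 1 h and 4 h were 74.3 and 81.5 CPM. The log2 fold change between the MitoCDNB groups was -0.26 (SE 0.0982, edgeR adjusted p = 0.0481). The ranges overlapped, and the call was kept in 2 of 12 omissions.

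Rpl5 (chr5:107900502-107909005), which with Rpl11 carries the 5S rRNA into the 60S subunit and can bind MDM2, ran from 136 to 173 CPM (median 151) and from 123 to 144 (median 135). The vehicle medians of Rpl5 at 1 h and 4 h were 140 and 144 CPM. Its log2 fold change between the MitoCDNB groups was -0.17 (SE 0.0653, edgeR adjusted p = 0.0494), and the call was kept in 4 of 12 omissions. Rpl11, its partner, ran from 142 to 168 CPM (median 149) and from 130 to 159 (median 145), with a log2 fold change of -0.07 (SE 0.0748, 95% interval -0.23 to 0.08). The difference between the partners was not tested.

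Rpl7l1 (chr17:46773907-46782672) was the 1 gene called higher: 41.0 to 48.0 CPM (median 45.5) in MitoCDNB at 1 h and 45.3 to 56.9 (median 51.5) at 4 h. The vehicle medians of Rpl7l1 at 1 h and 4 h were 48.8 and 47.3 CPM. Its log2 fold change between the MitoCDNB groups was 0.17 (SE 0.0603, edgeR adjusted p = 0.0350), kept in 5 of 12 omissions, and the MitoCDNB ranges overlapped. Its parent Rpl7 stood at 133 to 160 CPM (median 149) and 123 to 143 (median 138), a log2 fold change of -0.12 (SE 0.0640, edgeR adjusted p = 0.154).

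Rps2, a 40S protein at the mRNA entry channel, was the 1 gene whose MitoCDNB libraries separated between the times (13.1% of all genes did): 315 to 346 CPM (median 333) at 1 h and 347 to 396 (median 364) at 4 h. Its log2 fold change was 0.15 (SE 0.0586, edgeR adjusted p = 0.0649) and did not pass the test. It was chosen for this after its values were seen. The number of genes called in this comparison ran from 0 to 6 over omissions of 1 library, and the omissions of MitoCDNB 4 h replicates 3 and 4 and of MitoCDNB 1 h replicate 6 each left 0. It was 1 without MitoCDNB 4 h replicate 5 or MitoCDNB 1 h replicate 1 or 3, and 2 without MitoCDNB 4 h replicate 1 or 2 or MitoCDNB 1 h replicate 2 or 4. DESeq2 called 7 and limma-voom 3.

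Of the tested markers of other cells, 2 of 5 for lymphocytes, 1 of 7 for Kupffer cells and 3 of 8 for brain were called lower in this comparison by edgeR, where 13.4% of all genes were, and none of these higher. Of the 6 proliferating cell markers 1 was called higher (Birc5, log2 1.27, edgeR adjusted p = 0.00143) and 0 lower, and 0 of 5 erythroid and blood markers were called. Of the 8 hepatocyte markers, Cps1 was called higher (log2 0.46, edgeR adjusted p = 4.39e-04) and 0 lower. The 8 ran from -1.11 to 0.46 with a median of 0.03. Summed levels at 1 h and 4 h were 8.89 to 16.1 and 5.36 to 8.73 CPM for lymphocyte markers, 213 to 256 and 146 to 225 for Kupffer cell markers, and 8.45 to 20.3 and 7.98 to 15.7 for brain markers. Each of these pairs of ranges overlapped except that of the lymphocyte markers. In the treatment comparisons, Gzma, a lymphocyte marker, was called higher at 1 h (log2 1.59, edgeR adjusted p = 0.0162). Cps1 was called higher at 4 h (log2 0.45, edgeR adjusted p = 0.0142). No other listed marker was called there, where 6.57% of all genes were called at 1 h and 0.824% at 4 h. The part of the markers in the results above was not tested.

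**Figure D3:**
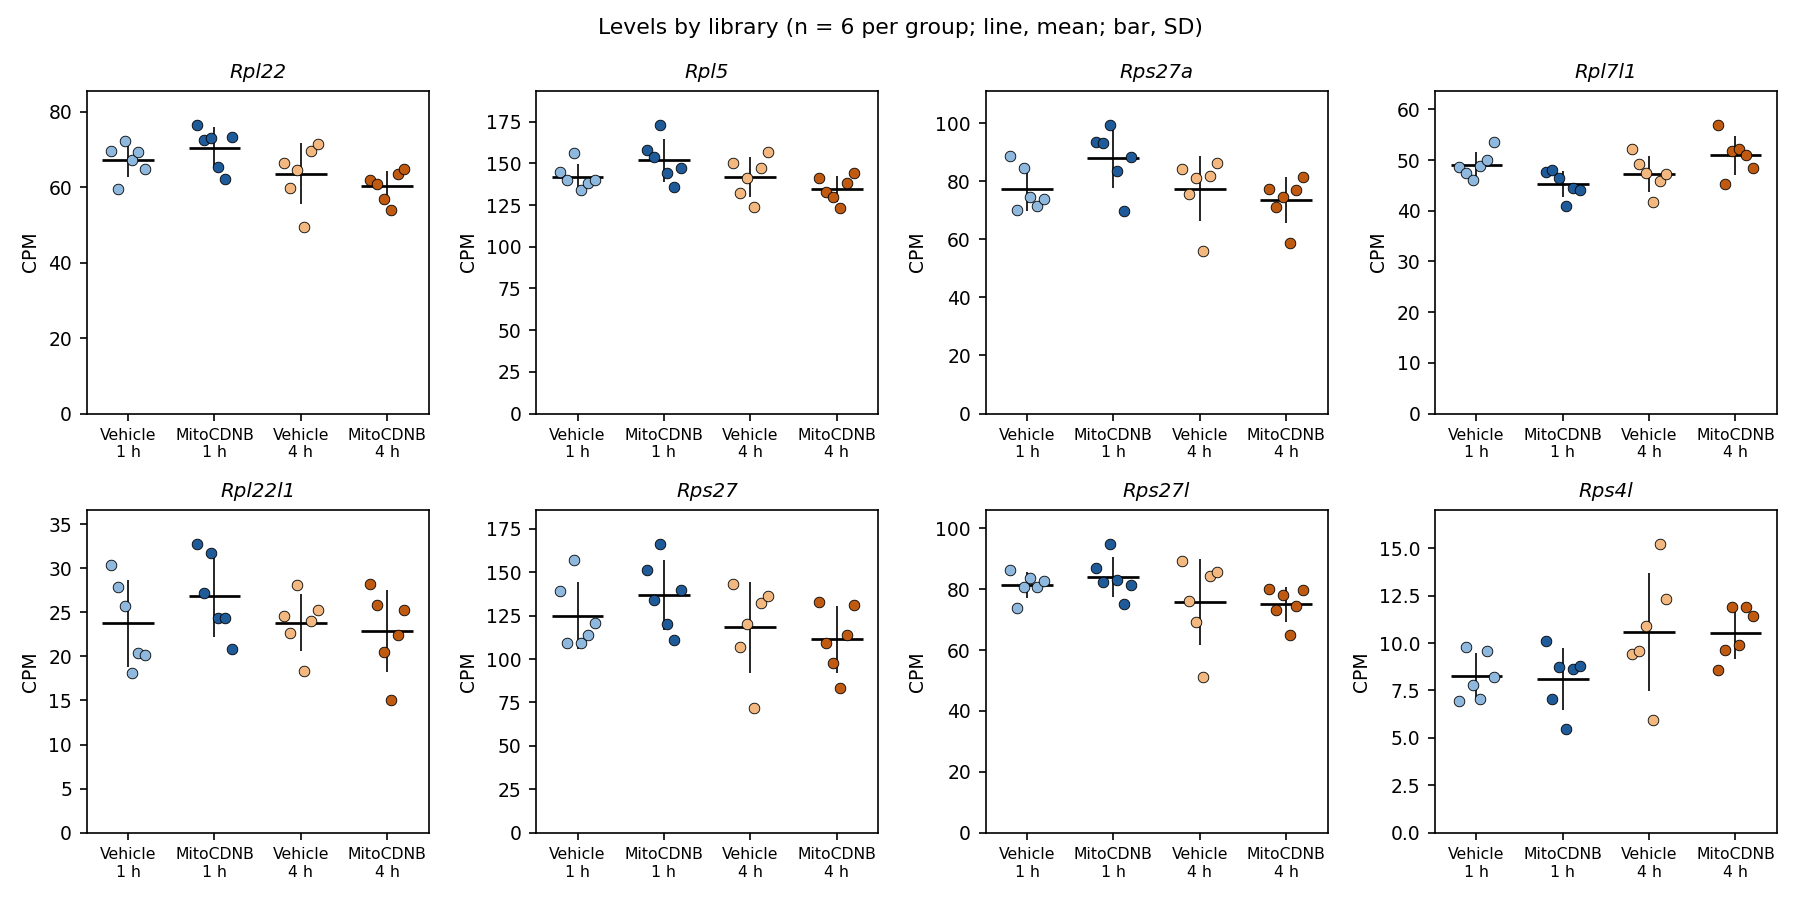
CPM on scaled libraries of 8 genes in the 4 groups, 1 point per library, with lines at the mean and bars of 1 SD (n = 6 per group). Rpl22, Rpl5, Rps27a and Rpl7l1 are the 4 called between the MitoCDNB groups; vehicle and MitoCDNB libraries of the same time overlap in all 8 panels.

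Genes chosen for their roles gave the following values in the treatment comparisons. Rps6, the 40S protein phosphorylated by the S6 kinases, ran from 170 to 192 CPM in vehicle and 171 to 210 in MitoCDNB at 1 h, with log2 fold changes of 0.07 (SE 0.0715) at 1 h and -0.03 (SE 0.0715) at 4 h. Rplp0, the scaffold of the stalk and a common reference gene, ran from 215 to 278 CPM and 238 to 282 at 1 h, and its log2 fold changes were 0.10 (SE 0.0672) and 0.01 (SE 0.0672). Neither gene was called at either time. Of the 9 listed genes of the exit tunnel rim, the 9 that can bind MDM2 or regulate p53, and the 18 whose human counterparts are mutated in Diamond-Blackfan anaemia, 0 were called by edgeR in either treatment comparison. Over all genes 6.57% were called at 1 h and 0.824% at 4 h, and at those shares lists of this size would hold few calls.

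The paralogs' values in the treatment comparisons were as follows. Rpl22l1 ran from 18.1 to 30.4 CPM (mean 23.7) in vehicle and from 20.8 to 32.7 (mean 26.8) in MitoCDNB at 1 h, with a log2 fold change of 0.18 (SE 0.146, edgeR adjusted p = 0.623), and of -0.06 (SE 0.146, edgeR adjusted p = 0.904) at 4 h. Rps27l, known as a p53 target, ran from 73.8 to 86.3 CPM (median 81.7) and from 75.2 to 94.7 (median 82.7) at 1 h, with a log2 fold change of 0.05 (SE 0.0937, edgeR adjusted p = 0.882), and of -0.02 (SE 0.0938, edgeR adjusted p = 0.967) at 4 h. The ranges of both overlapped between treatments at both times. Rps4x, the X-linked parent of Rps4l, ran from 105 to 126 CPM (median 116) and from 112 to 135 (median 122) at 1 h, with log2 fold changes of 0.07 (SE 0.0657) at 1 h and -0.03 (SE 0.0657) at 4 h. Rps4l itself stood at -0.02 (SE 0.166) and -0.00 (SE 0.164), with ranges that also overlapped.

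Although few genes were called between groups, the set varied together from library to library. After group means were removed, the Pearson correlation of log2 CPM between 2 of the genes had a median of 0.81 over 3240 pairs (0.10 to 0.97, n = 24 libraries), and 80 of 81 correlated above 0.5 with the mean of the other genes. A single component held 79.5% of their variance. These correlations share libraries and their scaling and are given as descriptions. The genes that followed the rest least were Rpl7l1 (0.41), Rps4l (0.51), Rps2 (0.55), Rpl18 (0.65) and Rpl22l1 (0.68).

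The shared movement came with particular libraries. In vehicle 4 h replicate 4, 0 of 81 genes lay above their own mean over all libraries, and the median deviation was -0.33 on the log2 scale. MitoCDNB 4 h replicate 4 followed at -0.19. MitoCDNB 1 h replicate 3 stood highest at 0.23, with 79 of 81 genes above their mean, and vehicle 4 h replicate 6 stood at 0.19 with 80 of 81. High and low libraries were thus found in vehicle and in MitoCDNB groups.

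**Figure D4:**
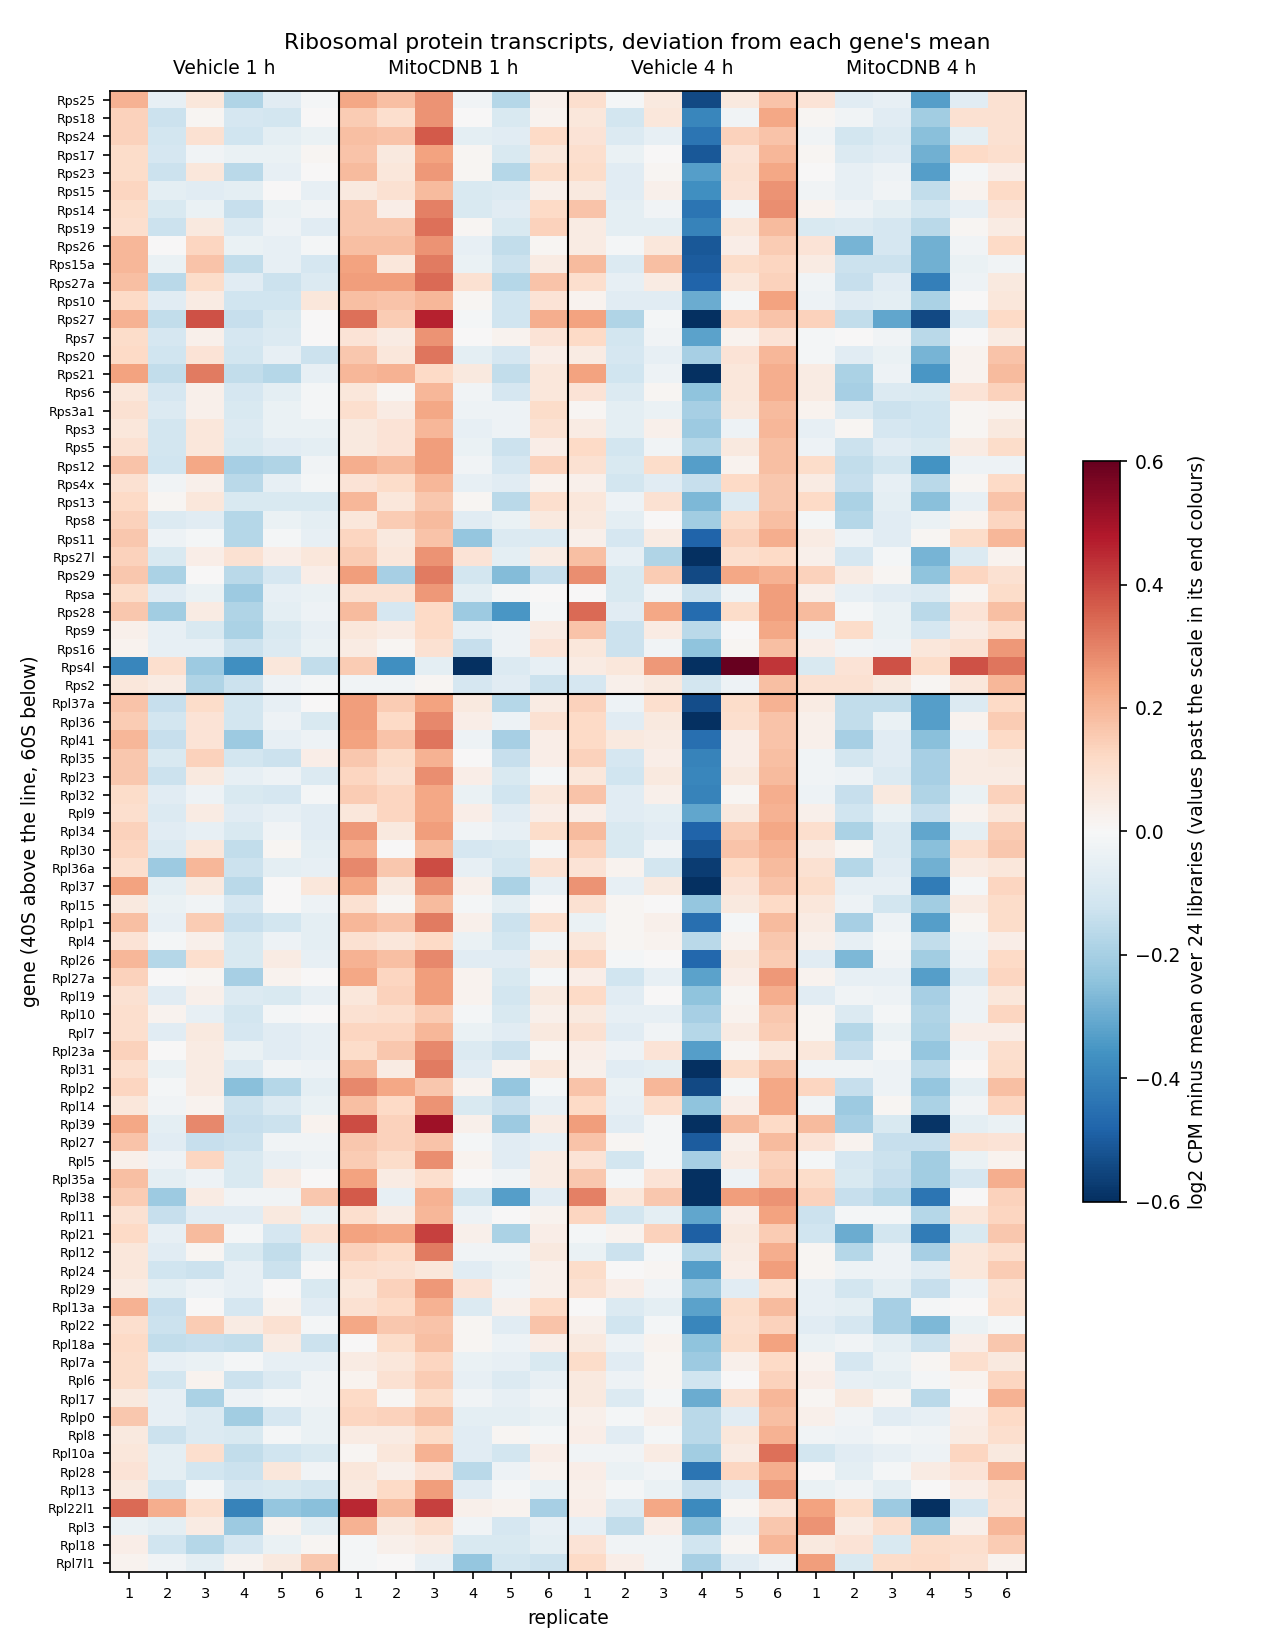
Log2 CPM of each of the 81 genes minus its mean over the 24 libraries, with 40S genes above the line and 60S genes below and libraries in columns by group and replicate. Most genes of a library share its direction, with vehicle 4 h replicate 4 the lowest (median -0.33) and MitoCDNB 1 h replicate 3 the highest (median 0.23).

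Other genes with short transcripts moved with them. In the same 4 libraries, 145 other genes with transcripts under 800 nt and at least 20 CPM had median deviations of -0.34, -0.17, 0.11 and 0.25, and over 24 libraries their median had a Pearson r of 0.88 with that of the ribosomal protein genes. For 1848 other genes of 3000 nt or more r was -0.18. Among the ribosomal protein genes themselves, the spread within groups was larger in shorter transcripts (Spearman rho -0.57 across 80 genes, which are not independent). The part of transcript length in the shared movement was not tested. At 1 h the median log2 fold change of the 145 short genes was 0.02, with 62.1% above 0, against 0.09 and 93.8% for the ribosomal protein genes. Because the ribosomal protein genes move together, these shares do not count independent genes, and the difference between them was not tested.

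**Figure D5:**
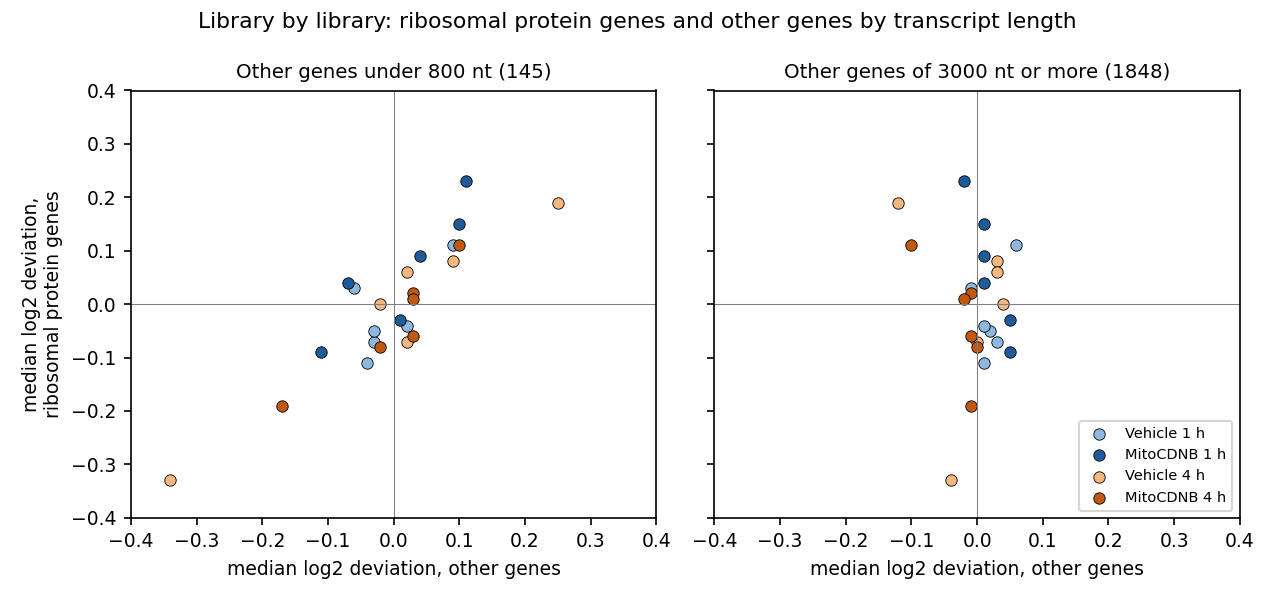
Median log2 deviation of the ribosomal protein genes in each library (vertical axis) against that of other genes with short transcripts (left) and long transcripts (right), 1 point per library. The points rise together on the left (r = 0.88 over 24 libraries) and not on the right (r = -0.18).

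The typical spread within a group was a standard deviation of 0.138 on the log2 scale, against 0.213 for all genes tested and 0.142 for the 4289 genes with at least 20 CPM. It was largest for Rps4l (0.310), Rpl39 (0.282) and Rpl22l1 (0.273). Rpl39, which lines the exit tunnel, ran from 69.3 to 93.4 CPM in vehicle and 65.4 to 108 in MitoCDNB at 1 h, and from 43.6 to 90.4 and 50.7 to 86.8 at 4 h. The smallest spreads were those of Rpl8 (0.0825) and Rpl4 (0.0826), both of the 60S core.

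Outside the set, 6360 genes of at least 10 CPM were compared in log2 level with the sum of the 81 tested genes over the 24 libraries. Symbols of predicted genes and clones and those with -ps were skipped. Those most like the sum were Tpt1 (r = 0.95), Eef1b2 (0.93), Uqcrh (0.91), Atp5l (0.91) and Rps27rt (0.90). Rps27rt holds nearly the same counts as Rps27, which is part of the sum, so its likeness is built in. Those most like Rpl22l1 were Sec61b (0.80) and Sec61g, Ndufc1, Gnb2l1 and Snx22 (0.77 each). Among ribosomal genes outside the symbol rule, Fau, Rpl36al, Rps27rt and Gnb2l1 (the symbol used here for Rack1) were not called by edgeR in any of the 5 comparisons. At 1 h their log2 fold changes were 0.13 (SE 0.0655), 0.05 (SE 0.101), 0.13 (SE 0.143) and 0.11 (SE 0.0579). The value of Rps27rt is the same as that of Rps27 and is not a separate measurement.

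Genes that act on ribosomal protein mRNAs or proteins were counted from lists, beside the 6.57% of all genes that edgeR called at 1 h and the 0.824% at 4 h. None of 24 elongation factors and other TOP mRNAs, 31 initiation factors or 14 chaperones and import factors of ribosomal proteins was called by edgeR in either treatment comparison. Of 20 genes of mTORC1 and TOP mRNA control, 2 were called at 1 h: Ddit4, an inhibitor of mTORC1, rose from 7.55 ± 1.72 to 49.2 ± 7.10 CPM (log2 2.70, SE 0.550, edgeR adjusted p = 0.00337), and Mlst8, a subunit of the complex, fell from 6.39 ± 0.781 to 4.78 ± 0.530 (log2 -0.42, SE 0.0981, edgeR adjusted p = 0.00759). At 4 h, 0 of the 20 were called. Of 14 transcription factors of ribosomal protein genes, 3 fell at 1 h, with Max at -0.31 (edgeR adjusted p = 0.00990) and Mycn at -1.98 (edgeR adjusted p = 0.0154, from 0.621 ± 0.328 to 0.159 ± 0.114 CPM), and 0 were called at 4 h. Of 15 genes of ribosome quality control and hibernation, Hbs1l, which rescues stalled ribosomes, rose at 1 h (log2 0.22, edgeR adjusted p = 0.0189), and 0 were called at 4 h.

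Between the MitoCDNB groups, 4 h against 1 h, edgeR called 28.5% of all genes, 15.1% higher and 13.4% lower, and the counts of the lists stand beside those shares. Of the 14 chaperones and import factors 4 rose, with Grwd1, a nucleolar histone-binding protein linked to ribosome assembly, at a log2 fold change of 0.98 (edgeR adjusted p = 3.91e-06). Of the 31 initiation factors 7 rose and 2 fell, with Eif2b4 at 0.41 (edgeR adjusted p = 2.73e-05) and Eif5 at -0.29 (edgeR adjusted p = 0.00174). Of the 14 transcription factors 5 rose and 3 fell, of the 20 genes of mTORC1 and TOP mRNA control 1 rose and 5 fell, of the 15 genes of quality control and hibernation 2 rose and 2 fell, and of the 24 elongation factors and other TOP mRNAs 1 rose. Ddit4 fell back to 9.49 ± 12.2 CPM (log2 -2.37, edgeR adjusted p = 0.00237).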

How the data were processed

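The deposited values are raw counts per gene symbol for 24 libraries of polyA RNA from mouse liver, as whole numbers with unequal totals. Per the labels' protocol, RNA was extracted with the PureLink kit and libraries were made with the NEBNext Ultra kit. The submitters' processing notes name build mm10 and the tools HISAT2, DESeq2, Trim Galore and CASAVA 1.8.4, used by the authors. How reads were counted (tool, annotation, strand, reads with several loci) is not given in the sources used here. Counts of near-identical copies and of overlapping genes, including the snoRNA genes inside 30 of the members, are uncertain. Replicates are mice per the labels' protocol.

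Genes were kept with filterByExpr of edgeR 4.0.16 (minimum count 10, minimum total 15), which left 13833. Counts were scaled by TMM, the 4 groups were fitted to all 24 libraries in R 4.3.3, and the robust quasi-likelihood F test was applied with Benjamini-Hochberg adjustment over all genes tested. Calls were made where the adjusted p was under 0.05. The fit was checked on simulated counts. Log2 CPM used a prior count of 2. DESeq2 1.42.0, limma 3.58.1 (voom), other scalings, filters and subsets were alternatives. No 2 libraries of a group agreed within sampling noise (lowest chi-square per degree of freedom 15.3 over 60 pairs). Lengths, positions and shared stretches of 50 bases come from GENCODE M21 (GRCm38), with the principal, best supported, shortest coding transcript, and promoters from RefSeq.

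The members and lists were chosen with earlier results of these data known. The genes named were, in each comparison, up to 6 called members of smallest p (2 where none was called), the 3 highest and 3 lowest per kb, the 3 of largest spread within groups, the paralogs with their parents, members below the filter, and Rps6, Rpl5, Rpl11, Rplp0 and Rps27a; from each other list, up to 2 called genes; and the 5 genes most like the sum and most like Rpl22l1. The rows with matching counts were searched for after the data were seen.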

Additional observations from a re-analysis of the deposited data

Results flagged for a closer look

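In 88 groups of 6 values examined for a value far from the others, 2 held one. The groups share their libraries and the genes move together, so this count cannot be compared with a chance rate for independent groups. Rps27a in vehicle 4 h replicate 4 stood at 56.1 CPM, below the other 5 libraries of its group at 75.5 to 86.2 CPM. This is the library in which all 81 tested ribosomal protein genes lay below their own mean. The ratio of the summed 40S to the summed 60S level in vehicle 4 h replicate 2 was 0.665, while the other 5 libraries of that group lay between 0.677 and 0.681.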

How the results depend on the processing

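The counts of 0 called at 1 h and at 4 h held under each alternative run, including each omission of 1 library, DESeq2, limma-voom, other scalings and no filter. For the interaction, 1 gene was called without the 2 libraries of 4 h that stood apart in earlier results, and for vehicle at 4 h against 1 h the count ran from 0 to 1 over omissions. For MitoCDNB at 4 h against 1 h the main count of 4 became 2 with no count filter, 7 with DESeq2 and 0 at an adjusted p under 0.01. It was 2 without those 2 libraries and 1 with 1 h replicates 4 to 6 alone, and it ran from 0 to 6 over omissions. With a term for 1 h replicates 4 to 6 it was 15. No 4 h library carries that term, so the 4 h libraries were then set against the level of 1 h replicates 1 to 3. The cause of these moves was not tested. No called value reversed; medians near 0 crossed it, at 4 h (-0.09 to 0.01 over omissions) and between the vehicle groups (-0.02 to 0.08). The share of counts was 1.33% without Mup genes and 2.08% without the 50 genes of highest mean count, since both shrink the total. Replicate numbers were not shown to pair the libraries (r from -0.21 to 0.26 over 12 pairs, 4 of them over 0.1, 4 best with their own number). With a replicate block within time, 0 members were called at 1 h, at 4 h and in the interaction, with medians of 0.09, -0.02 and -0.11, and all genes called went from 909 to 835 at 1 h and from 114 to 84 at 4 h. The block could not be fitted for comparisons between times. Depth limits only the 3 genes below the filter.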
